A study of Homo sapiens with 15 samples.

Results

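Tuscany extract (TE) was tested on HCT116 cells, an established human colorectal carcinoma line, by comparing poly(A) RNA from 3 cultures exposed to TE with RNA from 3 untreated cultures. TE is one of the olive oil production waste product (OPWP) extracts enriched in hydroxytyrosol (HTyr), the main phenol of the olive. It was added at 0.0154 mg/mL for 72 h, and all groups carry the label WT. The extracts were dissolved in sterile water, and the labels call the untreated cultures control samples without naming a vehicle. The series also holds 3 libraries each of cells exposed to an extract from Apulia (AE), to an extract from Sicily (SE) and to HTyr, at the same concentration and time. The comparison rests on 6 of the 15 libraries and on the 14899 of 60664 listed genes that reached at least 1 TPM, a share of a library's transcripts corrected for transcript length, in at least 3 of the 15 libraries. The labels call the cultures biological replicates of 1 cell line, so the tests measure the spread between cultures of that line.

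Columns were assigned to TE by the sample descriptions. Bracketed codes in the sample titles would instead give these columns to Sicily, and the TE and SE groups would then change places in every value given here. The study's own table, of which 1539 genes could be compared, lists under TE the values of these columns: in each of the 3 libraries all 1539 matched within rounding at 2 decimals, against at most 13 in any other column.

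HCT116 cells divide rapidly and carry the E2F-driven programme of most tumour lines: E2F factors switch on the genes of DNA synthesis once the retinoblastoma protein is inactivated, and a later wave of mitotic genes follows through promoter elements named CDE and CHR. Cells also read their attachment and shape. Free actin monomers and the Hippo kinases restrain the cofactors MRTF and YAP, which otherwise turn on cytoskeletal, matrix and early growth genes through SRF, TEAD and AP-1. Plant phenols are known for the NFE2L2 (NRF2) response, in which the sensor KEAP1 releases a factor that turns on quinone reductases and glutathione genes, and for ligands of the aryl hydrocarbon receptor (AHR), whose classical target is CYP1A1.

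A gene was called changed when limma's test on log2(TPM + 0.5) gave a Benjamini-Hochberg adjusted p under 0.05 and a change over 1.5-fold in either direction. By that rule 1112 genes rose with TE, which is 7.46% of those tested, and 784 fell, which is 5.26%. The split moved with the scaling, to 969 higher and 923 lower under median-ratio scaling, 979 and 910 under quantile normalization, and 1332 and 681 with mitochondrially encoded genes left out of the total. Past 2-fold, 220 were higher and 223 lower. The median over all genes tested was 0.05 on the log2 scale, and the TE and untreated libraries did not overlap for 46.7% of them. In bulk RNA, a change in every cell and a change in the share of cells in a given state cannot be told apart. TPM are shares of a library, so the makeup of the libraries is given here. Mitochondrially encoded genes took 18.5%, 21.5% and 17.8% of all TPM in the TE libraries, against 15.6%, 18.7% and 16.5% in the untreated libraries, and the groups overlapped (exact permutation test, two-sided p = 0.3). The 80 cytosolic ribosomal protein genes took 26.0%, 23.7% and 25.7% with TE and 29.7%, 27.2% and 28.5% without, with no overlap and an exact permutation p = 0.1, the smallest that 3 against 3 libraries allow. Sequencing depth per library is unknown from TPM, so no counting error can be given.

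**Figure D1:**
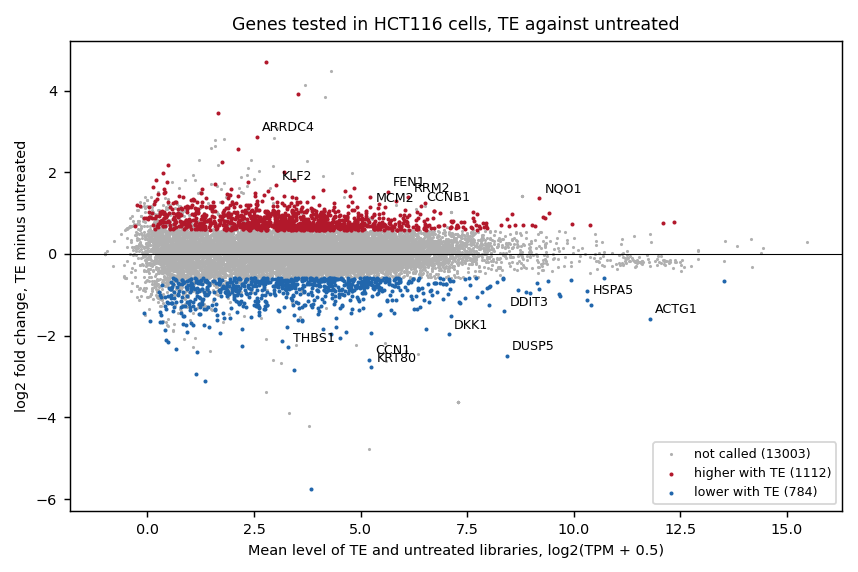
Change of each of the 14899 genes (TE minus untreated, log2 scale) against its mean level over the 6 libraries on the log2(TPM + 0.5) scale, with called genes coloured. The 1112 genes higher with TE and the 784 lower with TE lie across the whole range of levels, and genes at low levels scatter most.

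The line carried its epithelial label. Of 10 epithelial markers, 8 were above 1 TPM, CDH17 and VIL1 being below, and their summed level was 3149 to 3253 TPM with TE and 4647 to 4741 TPM without. Defining markers of fibroblasts (COL1A2, PDGFRA, THY1) and of leukocytes (PTPRC, CD3D, MS4A1) were listed at 0 in all 6 libraries, but ACTA2 and COL1A1 of the 10 fibroblast markers passed 1 TPM and that list summed to 9.38 to 11.7 TPM with TE and 11.8 to 15.1 TPM without. Of 10 leukocyte markers only CD68 passed 1 TPM, and the list summed to 5.09 to 6.39 TPM with TE and 16.8 to 17.5 TPM without, CD68 itself being lower with TE (-1.62 (adjusted p = 1.69e-05)). The part of these levels in the results below was not tested. Endothelial markers summed to under 1 TPM everywhere.

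Genes of DNA synthesis rose as a group. In a list of 51 replication genes, 39 rose with TE and none fell, against the 7.46% and 5.26% of all genes tested, and the list's median was 0.85. Licensing factors and helicase subunits moved most evenly, with 17 of 19 higher. MCM2, a subunit of the replicative helicase, stood at 50.6, 51.1 and 51.1 TPM in TE-treated cells, against 20.98, 23.4 and 24.01 TPM in untreated cells (log2 fold change 1.15, SE 0.068, adjusted p = 1.09e-07). FEN1, the flap endonuclease that trims Okazaki fragments, stood at 73.8, 74.03 and 72.1 TPM with TE and 22.98, 28.7 and 24.3 TPM without (log2 fold change 1.52, SE 0.085, adjusted p = 6.61e-08). The libraries of each group lay close together for both genes and the groups stood well apart, which a choice by smallest adjusted p favours. GINS2, of the same helicase complex, changed by 1.25, and ASF1B, a histone chaperone of the fork, by 1.63.

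The supply of building blocks rose in part. Of 23 nucleotide genes, 6 rose and none fell, among them RRM2, the regulated subunit of ribonucleotide reductase, TYMS, which makes thymidylate, and TK1, which salvages it. RRM2 had 96.7, 98.97 and 103 TPM in TE-treated cells, against 34.1, 39.04 and 40.2 TPM in untreated cells (log2 fold change 1.39, SE 0.071, adjusted p = 3.65e-08). RRM1, the other subunit, changed by 0.57 with an adjusted p = 1.36e-05, short of the fold threshold. It passed that threshold without TE replicate 3 or untreated replicate 2 and with mitochondrially encoded genes left out of the total.

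Recombination genes rose in part. PSMC3IP, an accessory factor of strand exchange, stood at 23.04, 27.7 and 25.8 TPM with TE, against 7.16, 10.8 and 7.17 TPM without (log2 fold change 1.57, SE 0.14, adjusted p = 3.24e-06). Of 28 genes of homologous recombination, 13 rose and none fell, FANCI of the Fanconi pathway, the checkpoint kinase CHEK1 and the Bloom complex member RMI2 among them. Of 8 mismatch repair genes, 3 rose and none fell, among them the exonuclease EXO1 and the mismatch sensor MSH6.

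Upstream of these, 10 of 27 genes of G1 control rose and none fell. The activators E2F1 and E2F2 rose by 0.99 and 1.43, and the E-type cyclins CCNE1 and CCNE2, which drive CDK2 into S phase, by 0.88 and 1.38. E2F2 stood at 5.21, 4.81 and 4.80 TPM with TE and 1.81, 1.58 and 1.20 TPM without (log2 fold change 1.43, SE 0.13, adjusted p = 3.14e-06). Of 28 targets of p53, the death receptor FAS and the quinone oxidoreductase TP53I3 rose by 0.69 and 0.64 (7.14%, against 7.46% of all genes tested). The 5 that fell (17.9%, against 5.26%) were PLK2, AEN and GADD45A and, named after their values were seen, MDM4 and PLK3. CDKN1A, the p53-driven inhibitor of cyclin-dependent kinases, had 182, 165 and 175 TPM with TE and 262, 241 and 273 TPM without, and its change of -0.57 was just under the fold threshold. Of 15 genes of the BCL2 family, the proapoptotic BCL2L11 and BOK rose by 0.74 and 0.64 and none fell. FAS and BOK lost their calls without untreated replicate 1. GADD45A lost its call without TE replicate 2, TE replicate 3 or untreated replicate 3, and MDM4 without TE replicate 3 or untreated replicate 2. GADD45A and MDM4 also lost their calls with mitochondrially encoded genes left out of the total. In that setting 3 genes of the p53 list fell, against 7 under median-ratio scaling. CDKN1A was called lower without TE replicate 1 or untreated replicate 2 and under median-ratio scaling and quantile normalization.

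Mitotic genes rose as well. Of 76, 46 rose and none fell, with a median of 0.65, and all 76 had a positive fold change. CCNB1, the cyclin of the mitotic kinase, stood at 119.9, 111 and 122 TPM in TE-treated cells and 49.1, 53.6 and 53.4 TPM in untreated cells (log2 fold change 1.17, SE 0.057, adjusted p = 1.94e-08). AURKB, the chromosomal passenger kinase, stood at 63.2, 68.8 and 66.2 TPM with TE and 33.6, 43.7 and 35.1 TPM without (log2 fold change 0.82, SE 0.092, adjusted p = 1.99e-05). KIF22, a chromokinesin, CCNF, a cyclin of the SCF ligase, and HMGB2, a chromatin protein, rose by 0.84, 0.95 and 0.98. STMN1, which destabilises microtubules, had 310.3, 332 and 298 TPM with TE and 189, 249 and 206 TPM without. Its change of 0.55 stayed under the fold threshold, which it passed without TE replicate 3 or untreated replicate 2. It also passed with mitochondrially encoded genes left out of the total. Of 10 tubulin genes 6 rose, TUBA1A and TUBB4B by 1.16 and 1.02; tubulin paralogues share sequence, so reads may be split between them.

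**Figure D2:**
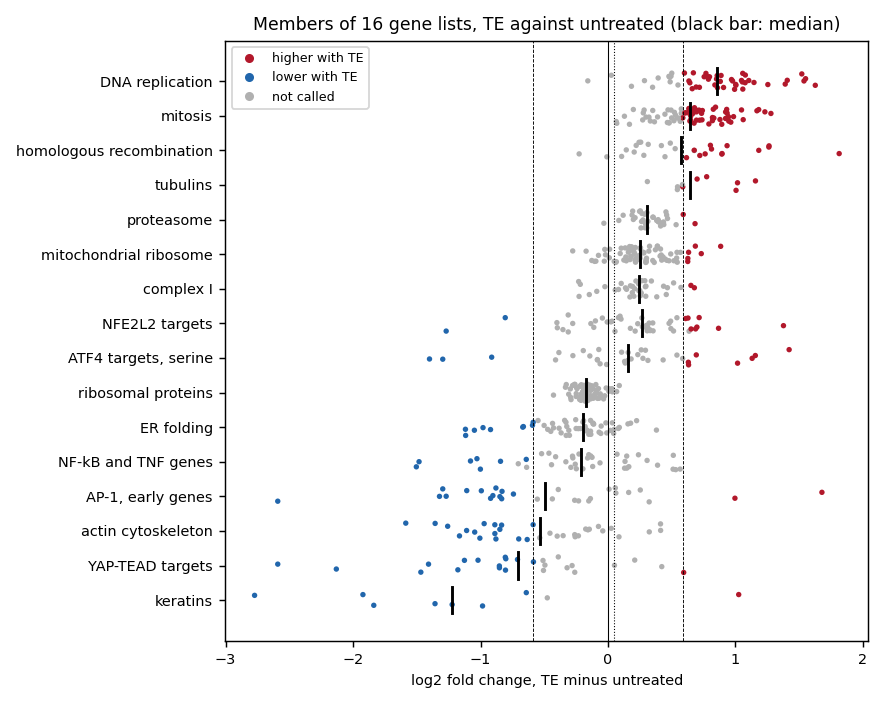
Each dot is a gene of 1 of 16 lists placed by its change with TE (TE minus untreated, log2 scale); black bars are list medians, dashed lines the 1.5-fold threshold and the dotted line the median of all genes, 0.05. Replication (median 0.85) and mitosis (0.65) lie to the right, the YAP-TEAD list (-0.71) and keratins (-1.22) to the left, and ribosomal proteins (-0.17) in a narrow band.

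Promoters of E2F1 and ASF1B are shown because they belong to the genes that rose together, and that of HSPA5 because it leads the stress genes that fell. All sequences are RefSeq windows on build GRCh38.p14 reaching from 250 bases before to 50 after the gene's start, and a match of letters is a description, not a site. For E2F, the forms TTTCCCGC, TTTGGCGC, TTTCGCGC and TTTGCCGC were searched on both strands. For the CHR, TTTGAA was searched, for the CCAAT box CCAAT, and for the second part of the ER stress element CCACG. Capitals mark these letters below.

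E2F1 (chr20:33686336-33686635, minus strand; E2F forms in capitals): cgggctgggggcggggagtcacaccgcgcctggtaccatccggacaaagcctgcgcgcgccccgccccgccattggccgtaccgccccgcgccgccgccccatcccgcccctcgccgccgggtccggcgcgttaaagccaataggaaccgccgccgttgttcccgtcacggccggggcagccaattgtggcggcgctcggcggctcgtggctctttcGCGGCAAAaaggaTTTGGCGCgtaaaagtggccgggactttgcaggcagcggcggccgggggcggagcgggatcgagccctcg
ASF1B (chr19:14136540-14136839, minus strand; CCAAT and TTTGAA in capitals): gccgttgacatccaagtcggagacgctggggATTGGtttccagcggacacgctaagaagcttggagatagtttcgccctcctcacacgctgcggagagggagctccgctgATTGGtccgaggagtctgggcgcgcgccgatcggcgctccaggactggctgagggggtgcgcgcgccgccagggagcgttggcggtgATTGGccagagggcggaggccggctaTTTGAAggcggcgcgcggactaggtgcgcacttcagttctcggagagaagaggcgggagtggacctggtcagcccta
HSPA5 (chr9:125241294-125241593, minus strand; CCAAT and CCACG in capitals): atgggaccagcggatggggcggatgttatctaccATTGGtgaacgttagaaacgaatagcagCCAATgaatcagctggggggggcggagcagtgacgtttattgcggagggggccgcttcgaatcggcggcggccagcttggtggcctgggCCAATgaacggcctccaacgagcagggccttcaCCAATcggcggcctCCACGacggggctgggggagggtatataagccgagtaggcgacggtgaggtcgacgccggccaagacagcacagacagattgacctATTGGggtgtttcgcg

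The promoter of E2F1 held 2 E2F matches, that of ASF1B 4 matches of both kinds together and that of HSPA5 6. Among replication genes, 19 of 44 windows (43.2%) held an E2F form, against 5.48% of the windows of genes tested and 3.33% of all windows. The window of ASF1B, a member of that list, held no E2F form. Its TTTGAA was found in only 2 of the 44 (4.55%), against 9.28% of genes tested. Among mitotic genes, 43 of 63 (68.3%) held TTTGAA, against 9.28% and 15.4%, and 46 (73.0%) held CCAAT, against 36.8% and 35.7%. CCAAT was about as common among genes of folding in the endoplasmic reticulum (ER), at 34 of 49 (69.4%), a list of which 9 of 55 members fell and none rose.

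**Figure D3:**
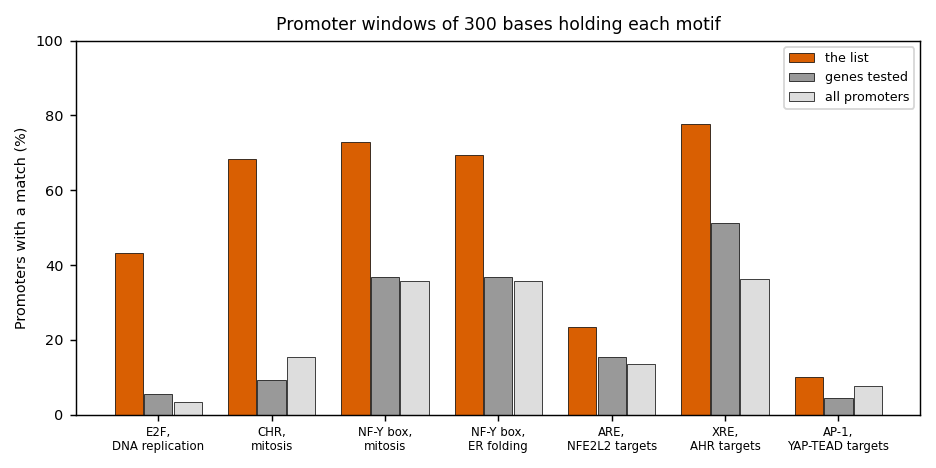
Share of 300-base promoter windows (percent) that hold each motif, for a gene list, for the genes tested and for all 27305 windows; NF-Y box stands for CCAAT, ARE for the antioxidant element and XRE for the AHR element. The replication list holds E2F forms in 43.2% of windows against 5.48% of genes tested, while the AP-1 letters TGANTCA are in 10% of YAP-TEAD windows against 4.5% of genes tested.

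The falls were led by genes of cell shape and attachment. KRT80, a type II keratin, had 9.33, 8.72 and 9.35 TPM in TE-treated cells, against 72.8, 58.5 and 65.5 TPM in untreated cells (log2 fold change -2.77, SE 0.089, adjusted p = 9.34e-10). Of 9 keratins tested, 7 fell, with a median of -1.22, and only KRT23 rose, to 23.7, 22.1 and 20.1 TPM with TE against 9.81, 10.4 and 11.4 TPM without. KRT7 and KRT15 fell by 1.84 and 1.92, and the simple-epithelial KRT19 and KRT18 by 0.98 and 0.64. KRT8, the partner of KRT18, gave -0.48 (adjusted p = 5.14e-05).

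Actin genes fell in part. Of 33 genes of the actin cytoskeleton, 16 fell and none rose, with a median of -0.54. ACTB, the cytoplasmic beta-actin, stood at 817, 778 and 793 TPM with TE and 2035, 1798 and 1888 TPM without (log2 fold change -1.26, SE 0.069, adjusted p = 5.78e-08). ACTG1, named here after its values were seen, had 1866, 1598 and 1812 TPM with TE against 6121, 4513 and 5307 TPM without (log2 fold change -1.59, SE 0.11, adjusted p = 4.5e-07); the coding sequences of the 2 actins are nearly alike, so the split of reads between them is uncertain. VCL, which ties actin to adhesion sites, MYL12A, a myosin light chain, and SRF, the factor through which MRTF acts, fell by 1.11, 0.85 and 0.88.

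Among targets and regulators of YAP and TEAD, 14 of 25 fell and 1, the factor gene TEAD2, rose, with a median of -0.71. TEAD2 lost its call under a pseudocount of 1, median-ratio scaling and quantile normalization and without TE replicate 2 or untreated replicate 3. CCN1 and CCN2, secreted matricellular proteins that are classical YAP targets, were among the deepest falls of all genes. CCN1 stood at 11.5, 9.71 and 8.91 TPM in TE-treated cells, against 62.8, 60.7 and 64.8 TPM in untreated cells (log2 fold change -2.59, SE 0.10, adjusted p = 2.67e-09). CCN2 stood at 2.49, 2.71 and 3.14 TPM and 16.3, 12 and 13.5 TPM (log2 fold change -2.13, SE 0.17, adjusted p = 1.17e-06). The groups did not overlap for either gene, which the naming rule required of the largest falls. AMOTL2, which binds YAP, the receptor kinase AXL and the actin binder LIMA1 fell by 1.47, 1.13 and 1.18. Without mitochondrially encoded genes in the total, 13 genes of this list fell and 1 rose.

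Matrix and invasion genes fell in part. Of 31 mesenchymal genes, 10 fell and only CEMIP, which degrades hyaluronan, rose, at 8.71, 6.36 and 7.35 TPM with TE and 1.80, 1.80 and 1.95 TPM without (log2 fold change 1.75, SE 0.14, adjusted p = 1.5e-06). THBS1, an adhesive matrix glycoprotein, fell to 2.72, 2.99 and 2.77 TPM with TE, against 17.7, 14.96 and 14.3 TPM without (log2 fold change -2.28, SE 0.10, adjusted p = 1.23e-08). LAMB3, a laminin chain, and TIMP2, an inhibitor of matrix proteases, fell by 1.37 and 1.03. Of 24 genes of TGF-beta signalling, 6 fell (25.0%, against 5.26% of all genes tested), the effector SMAD3 (-0.76) among them. The ligands TGFB1 (0.64) and BMP4 (0.82) rose (8.33%, against 7.46%). TGFB1 lost its call without TE replicate 3 or untreated replicate 1.

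Early growth genes fell unevenly. Of 28 AP-1 and immediate early genes, 13 fell (46.4%, against 5.26% of all genes tested) and 2 rose (7.14%, against 7.46%). The median was -0.5. The risers were KLF2 and KLF10, zinc-finger factors, and KLF2 stood at 9.53, 14.7 and 11.6 TPM with TE, against 2.54, 3.86 and 3.73 TPM without (log2 fold change 1.68, SE 0.19, adjusted p = 2.47e-05). Feedback genes of the ERK kinases fell in part: 5 of 22 fell and none rose. DUSP5, a nuclear phosphatase of ERK, had 108, 99.1 and 102 TPM in TE-treated cells, against 642, 528 and 583 TPM in untreated cells (log2 fold change -2.49, SE 0.094, adjusted p = 2.67e-09). Its cytoplasmic counterpart DUSP6, named after its values were seen, had 176, 240.3 and 185 TPM with TE and 133, 167 and 141 TPM without, and its change of 0.44 stayed under the fold threshold. DUSP1 and the receptor EPHA2 fell by 1.32 and 1.51, and MYC, the growth factor-responsive oncogene, by 0.68. The last of the 5 was SPRY1, named after its values were seen (-1.0). ETS1, a factor activated by ERK, stood at 7.11, 7.32 and 8.15 TPM and 31.3, 30.6 and 30.8 TPM.

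Of 13 genes tested in the list of the EGFR family, EGFR, the ligand HBEGF and the inhibitor ERRFI1 fell (23.1%), by 0.64, 0.74 and 0.72. The ligand BTC rose by 0.83 (7.69%). Of 21 Wnt genes, the antagonist DKK1 and MYC fell (9.52%) and AXIN2, the feedback scaffold of beta-catenin signalling, rose (4.76%). Over all genes tested 5.26% fell and 7.46% rose. DKK1 stood at 51.1, 56.6 and 54.5 TPM with TE, against 218, 220.4 and 202 TPM without (log2 fold change -1.97, SE 0.11, adjusted p = 5.68e-08). AXIN2 stood at 7.03, 6.64 and 7.19 TPM and 2.52, 3.72 and 2.95 TPM (log2 fold change 1.08, SE 0.11, adjusted p = 1.25e-05). Of 40 genes of NF-kB and TNF signalling, 7 fell and none rose, with a median of -0.21. They included IL18, a cytokine (-1.0), TNFRSF12A, the receptor of TWEAK (-0.84), and PLAU, urokinase (-1.08). Among mucosal and immune surface genes, 3 of 12 fell: VSIR, a checkpoint receptor, at 8.80, 11.2 and 10.1 TPM with TE and 40.8, 33.5 and 43.8 TPM without (-1.92), the checkpoint ligand CD274 (-0.92) and the nectin-like receptor PVR (-0.62). PVR lost its call with mitochondrially encoded genes left out of the total.

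**Figure D4:**
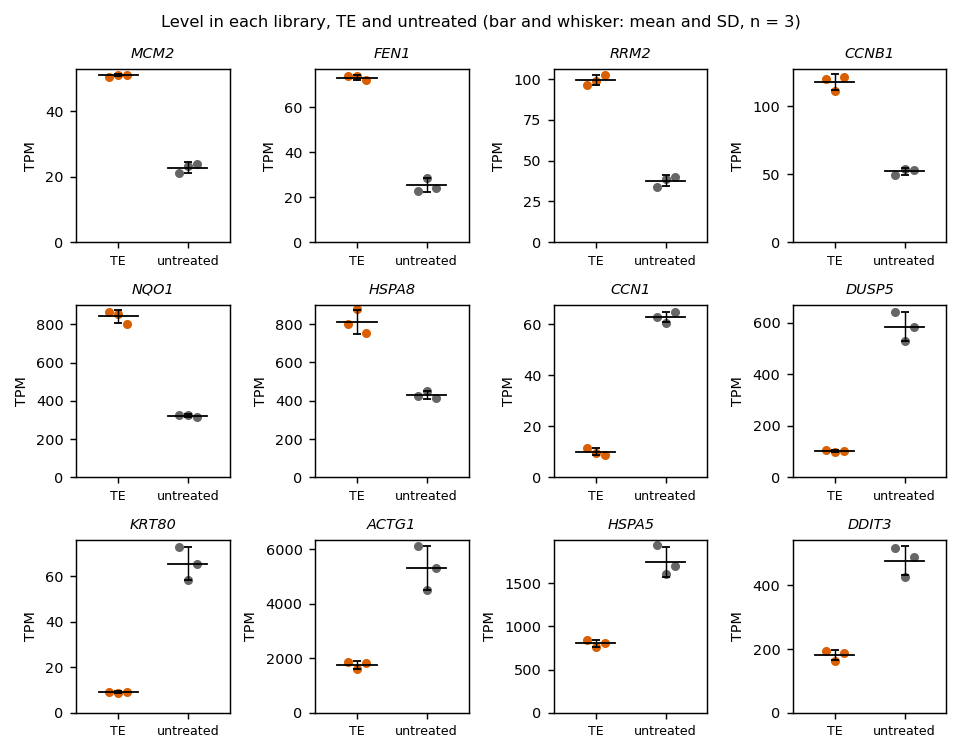
Level of 12 genes in each library (TPM, each axis starting at 0), TE on the left and untreated on the right of each panel, with mean and SD (n = 3). MCM2, FEN1, RRM2, CCNB1, NQO1 and HSPA8 are higher in all 3 TE libraries, and CCN1, DUSP5, KRT80, ACTG1, HSPA5 and DDIT3 are lower in all 3.

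Folding genes of the ER fell in part. Of 55 tested, 9 fell and none rose, with a median of -0.20. HSPA5 (BiP), the main ER chaperone, stood at 839, 756 and 811 TPM with TE, against 1939.9, 1599.8 and 1699 TPM without (log2 fold change -1.12, SE 0.065, adjusted p = 8.95e-08). Its cochaperone DNAJB9, the secreted chaperone MANF and the degradation factor HERPUD1 fell by 1.12, 0.66 and 0.92. HSP90B1, another abundant ER chaperone outside the naming rule, gave -0.43 (adjusted p = 0.000351). The 11 disulfide isomerases held no called gene.

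Targets of ATF4, a factor of the stress response, moved in both directions. Of 34 genes, 7 rose and 3 fell. Of the 24 in the stress arm, 3 rose and 3 fell, and the risers, named after their values were seen, were the glutathione-degrading enzyme gene CHAC1 (0.69) and the secreted factor genes INHBE (1.42) and FGF21 (1.02), FGF21 losing its call without TE replicate 3. The 3 that fell were DDIT3 (CHOP), a proapoptotic factor, ATF3, a stress-induced repressor, and PPP1R15A, which restarts translation. DDIT3 had 193, 163 and 187 TPM in TE-treated cells, against 518, 427 and 489.5 TPM in untreated cells (log2 fold change -1.40, SE 0.11, adjusted p = 9.65e-07). Of the 10 genes of serine and one-carbon metabolism in the list, 4 rose: PSAT1 and, named after their values were seen, PHGDH, PSPH and SHMT1. PSAT1, the serine transaminase, stood at 311, 295 and 307 TPM with TE, against 197, 188 and 204 TPM without (log2 fold change 0.63, SE 0.06, adjusted p = 4.95e-06), a call that quantile normalization took away, and PHGDH also lost its call without TE replicate 3. None of 20 cytosolic tRNA synthetases was called (median 0.01).

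Some cytosolic chaperone genes rose. Of 26 heat shock genes, 5 rose (19.2%, against 7.46% of all genes tested): HSPA8, HSPA1B, DNAJA1, FKBP5 and, named after its values were seen, CHORDC1. The only fall (3.85%, against 5.26%) was that of the small heat shock protein gene HSPB8 (-1.0). The other 20 were not called, and median-ratio scaling left 3 rises. HSPA8, the constitutive HSP70, had 799, 879 and 756 TPM with TE and 427, 450.4 and 412 TPM without (log2 fold change 0.91, SE 0.077, adjusted p = 1.87e-06). DNAJA1, its cochaperone, rose by 0.80, and HSPA1B, whose coding sequence is nearly that of HSPA1A, by 1.29. Of 38 proteasome genes, PSMD1 and PSME3 rose (5.26%, below the 7.46% of all genes tested) and none fell, PSME3 being named after its values were seen. The median was 0.31, and 37 of the 38 had a fold change above 0. FKBP5, CHORDC1 and PSME3 each lost their calls under median-ratio scaling and quantile normalization. FKBP5 also lost its call without TE replicate 1 or untreated replicate 1. CHORDC1 and PSME3 lost theirs with array weights and without TE replicate 2 or untreated replicate 3, CHORDC1 also under a pseudocount of 1 and without untreated replicate 1.

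The NFE2L2 response was narrow. Of 47 targets and regulators, 8 rose (17.0%, against 7.46% of all genes tested) and 2 fell (4.26%, against 5.26%), with a median of 0.27. NQO1, the quinone reductase that is its standard readout, stood at 866, 855 and 803 TPM in TE-treated cells, against 327, 328 and 316 TPM in untreated cells (log2 fold change 1.38, SE 0.047, adjusted p = 1.2e-09). GCLM, the modifier subunit of glutathione synthesis, stood at 25.7, 20.5 and 20.99 TPM and 16.6, 11.7 and 12.8 TPM (log2 fold change 0.70, SE 0.12, adjusted p = 0.000734). HMOX1, haem oxygenase, stood at 25.01, 23.8 and 24.5 TPM and 16.8, 15.3 and 14.2 TPM (log2 fold change 0.65, SE 0.09, adjusted p = 9.8e-05). The glutathione transferase GSTP1 and the export pump ABCC2 rose by 0.69 and 0.71. The 2 that fell were OSGIN1 (-0.81), an oxidative stress-induced gene, and MAFF (-1.27), a small Maf partner. GCLC, the catalytic subunit beside GCLM, gave -0.11 (adjusted p = 0.537), and TXNRD1, the thioredoxin reductase, -0.40 (adjusted p = 0.000216); both were named after their values were seen.

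A few AHR targets rose. The list of 12 holds targets and the pathway's own factors, AHR and ARNT among them. NQO1, CYP1A1, TIPARP and AHRR rose, the last 2 of which were named after their values were seen. NQO1 is counted in the NFE2L2 list as well. None fell and 8 were not called (median 0.18). Median-ratio scaling gave 3 higher and 1 lower, the lower one being ALDH1A3, a retinal dehydrogenase, which gave -0.54 (adjusted p = 0.000257) and was called lower under that scaling, under quantile normalization and without untreated replicate 1 (-0.638 to -0.586). CYP1A1, a monooxygenase, stood at 1.69, 2.04 and 1.38 TPM with TE, against 0.39, 0.81 and 0.60 TPM without (log2 fold change 1.01, SE 0.17, adjusted p = 0.00047). AHRR, the receptor's repressor, was at 2.52, 2.04 and 2.40 TPM and 1.37, 1.94 and 0.07 TPM, and its adjusted p was 0.0441. Leaving out untreated replicate 3, the library at 0.07 TPM, or any of the 3 TE libraries ended the AHRR call, as did a pseudocount of 0.1, median-ratio scaling, and a fit to only the groups compared, and TIPARP lost its call without TE replicate 2 or without untreated replicate 1. The promoters of GCLM and CYP1A1 are shown because their genes separate TE from other treatments below. TGACNNNGC, the core of the antioxidant element, is in capitals in GCLM, and GCGTG, the core of the AHR element, in CYP1A1, both strands searched.

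GCLM (chr1:93909381-93909680, minus strand): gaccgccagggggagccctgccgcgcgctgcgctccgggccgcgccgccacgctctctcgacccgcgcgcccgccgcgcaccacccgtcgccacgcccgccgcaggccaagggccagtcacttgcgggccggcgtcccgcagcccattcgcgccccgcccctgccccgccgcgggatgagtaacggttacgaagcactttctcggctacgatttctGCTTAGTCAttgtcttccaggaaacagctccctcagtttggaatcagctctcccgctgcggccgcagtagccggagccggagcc
CYP1A1 (chr15:74725479-74725778, minus strand): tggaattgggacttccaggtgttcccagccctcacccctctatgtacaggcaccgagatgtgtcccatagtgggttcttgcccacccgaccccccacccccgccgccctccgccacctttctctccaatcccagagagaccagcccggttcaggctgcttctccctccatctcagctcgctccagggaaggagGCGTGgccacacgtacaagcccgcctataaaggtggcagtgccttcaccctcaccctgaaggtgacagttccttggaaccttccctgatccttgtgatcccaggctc

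TGACNNNGC was present in 8 of 34 windows of the NFE2L2 list (23.5%), 15.4% of windows of genes tested and 13.6% of all windows. GCGTG was present in 7 of 9 windows of the AHR list (77.8%), 51.3% of windows of genes tested and 36.3% of all. CCACG reads CGTGG on the other strand and can overlap GCGTG.

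Few mitochondrial genes were called, though most had small changes above 0. Of 37 nuclear subunits of complex I, NDUFA11 and NDUFB10 rose (5.41%, against 7.46% of all genes tested) and none fell (median 0.24). None of 42 subunits of complexes II to V was called (median 0.14). NDUFA11 stood at 240.4, 235 and 225 TPM with TE, against 147, 145 and 154 TPM without (log2 fold change 0.65, SE 0.082, adjusted p = 5.08e-05). Quantile normalization took its call away. Of the 13 mRNAs of the mitochondrial genome, MT-ND2 and MT-CYB rose. MT-CYB, a subunit of complex III, stood at 6184, 7636 and 5893 TPM and 3399, 4252 and 3863 TPM (log2 fold change 0.77, SE 0.10, adjusted p = 7.37e-05), and the TE library with the highest value was also the one with the highest mitochondrial share. Of 77 mitochondrial ribosome genes, 6 rose (7.79%) and none fell (median 0.25). MRPL16 and MRPL11 rose by 0.73 and 0.63, the call of MRPL11 being lost under median-ratio scaling and without untreated replicate 2. Fold changes were above 0 for 31 of the 37 genes of complex I and 31 of the 42 of complexes II to V. So were those of all 13 mitochondrial mRNAs and 68 of the 77 mitochondrial ribosome genes, against 8150 of 14899 genes tested.

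None of the regulators of mitochondrial biogenesis and dynamics followed by the study was called at the RNA level. Except for PPARG, the study measured the products of the genes below as proteins by Western blot. It reported rises, and a reduction for MFF. RNA and protein are unlike measures, so the values here do not test those blots. PPARG, the nuclear receptor, had 25.6, 23.5 and 26.1 TPM in TE-treated cells and 35.1, 36.1 and 40.01 TPM in untreated cells (log2 fold change -0.56, SE 0.09, adjusted p = 0.000368), just short of the fold threshold, and it was called lower under median-ratio scaling, under quantile normalization and without TE replicate 3 or untreated replicate 1. TFAM, which packages and transcribes mitochondrial DNA, had 34.3, 39.9 and 36.7 TPM and 27, 25.6 and 30.4 TPM (log2 fold change 0.41, SE 0.10, adjusted p = 0.00598). FOXJ3, upstream of MEF2, gave -0.35 (adjusted p = 0.000431), the import receptor TOMM20 -0.14 (adjusted p = 0.213), and the fusion and fission genes MFN1, MFN2 and MFF 0.16, -0.07 and -0.19. PPARGC1A was listed at 0 in these 6 libraries.

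Few genes of protein and lipid synthesis were called. None of 80 ribosomal protein genes and none of 42 ribosome biogenesis genes was called, with medians of -0.17 and 0.01. The ribosomal protein genes nevertheless moved mostly 1 way by small steps. Only 6 of the 80 had a fold change above 0, against 8150 of 14899 genes tested. For 48 of the 80 the libraries did not overlap, against 6957 of 14899. Of 28 cholesterol genes, 3 rose (10.7%, against 7.46% of all genes tested) and none fell (median 0.19). Among the risers were FDPS (0.68), which makes farnesyl diphosphate, and ACAT2 (0.59), named after its values were seen. ACAT2 lost its call under a pseudocount of 1, median-ratio scaling and quantile normalization. It also did so without TE replicate 1 or 2 and without untreated replicate 1. Of 45 genes of hypoxia and glycolysis 2 rose (4.44%, against 7.46% of all genes tested), the glycolytic PFKL (0.76) and TPI1 (0.72). In that list 6 fell (13.3%, against 5.26%), HK2, a hexokinase, by 0.91. The highest fold among named protein-coding genes with values above 0 in every library was that of ARRDC4, an arrestin-domain gene that answers glucose-sensing MondoA. ARRDC4 stood at 8.31, 10.7 and 10.6 TPM with TE, against 0.60, 0.98 and 1.23 TPM without (log2 fold change 2.87, SE 0.21, adjusted p = 5.21e-07). Its relative ARRDC3 gave -0.31 (adjusted p = 0.0974). TXNIP, another arrestin-domain gene, was listed at 0 in these 6 libraries and was not tested.

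The other 3 treatments are compared with TE directly, so that no untreated library enters the contrast. Few genes passed between TE and AE: 5 were higher with TE (0.0336% of those tested) and 8 lower (0.0537%), although 1764 had an unadjusted p under 0.05 in limma's test. No gene of the mitosis list was called, but the median of that list was -0.29 for TE against AE. Against the same untreated libraries 46 of its 76 genes rose with TE and 68 with AE. Of the 8 lower genes, 4 belong to the NFE2L2 list of 47. NQO1 stood at 866, 855 and 803 TPM with TE, against 1384, 1317 and 1399.7 TPM with AE (log2 fold change -0.70, SE 0.047, adjusted p = 1.57e-05). HMOX1, GCLM and OSGIN1 gave -0.78, -0.73 and -0.69. CYP1A1 gave -0.97, and the remaining 3 were SPIN2B, a histone reader (-0.72), and the genes PIR (-0.65) and CKAP2L (-0.62), which were named after their values were seen. Higher with TE were LINC02356 (1.5), CD68, a lysosomal membrane protein (0.99), LCN2 (0.82), DKK1 (0.72) and KIAA0040 (0.59). With only the TE and AE libraries in the fit, no gene was called higher and 1 lower, and leaving out any 1 of the 6 libraries gave 4 to 8 calls. Median-ratio scaling gave 7 higher and 5 lower.

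TE and SE differed most. Of the genes tested 546 were higher with TE (3.66%) and 700 lower (4.7%), and median-ratio scaling turned that split to 667 higher and 510 lower. Replication and mitosis genes stood lower with TE than with SE in 38 of 51 and 54 of 76 cases, and none was higher. CCNB1 stood at 119.9, 111 and 122 TPM with TE, against 229, 239 and 247 TPM with SE (log2 fold change -1.02, SE 0.057, adjusted p = 7.68e-08), and RRM2 at 96.7, 98.97 and 103 TPM against 203, 216 and 199 TPM (log2 fold change -1.05, SE 0.071, adjusted p = 3.36e-07). The stress arm of the ATF4 list stood the other way, with 17 of 24 genes higher with TE and none lower, and of its 10 serine and one-carbon genes 1, SHMT1, was lower. DDIT3 stood at 193, 163 and 187 TPM with TE, against 35.8, 42.1 and 45.8 TPM with SE (log2 fold change 2.12, SE 0.11, adjusted p = 4.88e-08). CYP1A1 stood at 1.69, 2.04 and 1.38 TPM with TE and 17.6, 21.8 and 23.5 TPM with SE (log2 fold change -3.29, SE 0.17, adjusted p = 4.88e-08). LCN2, lipocalin 2, a siderophore-binding protein of the mucosa, showed the reverse, at 48.4, 44.8 and 41.7 TPM with TE and 2.66, 3.15 and 3.28 TPM with SE (log2 fold change 3.69, SE 0.10, adjusted p = 7.39e-11). Untreated cells held 59.2, 56.04 and 52.6 TPM of LCN2, so its level with TE was not above theirs (-0.31 (adjusted p = 0.0238) for TE against untreated). SPX, TNFRSF6B, a decoy receptor of FAS ligand, and PRPH, a neuronal filament protein, were higher with TE by 2.85, 2.53 and 2.43. WFDC21P, at 3.77, 3.16 and 23.1 TPM in the TE libraries, is decided by 1 of them.

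TE and HTyr differed at few genes: 66 were higher with TE (0.443%) and 39 lower (0.262%), and median-ratio scaling turned the split to 31 and 56. Leaving out a library moved the 105 calls to 54, 56 and 55 without TE replicates 1, 2 and 3, and to 63 without HTyr replicate 3. No gene of the replication and mitosis lists was among them. The median of the mitosis list was nevertheless -0.24 for TE against HTyr, and that of the replication list 0.04, against 0.07 over all genes tested. Against the same untreated libraries 46 of the 76 mitosis genes rose with TE and 61 with HTyr. CYP1A1 stood at 1.69, 2.04 and 1.38 TPM with TE, against 6.06, 7.18 and 8.20 TPM with HTyr (log2 fold change -1.80, SE 0.17, adjusted p = 0.000159). LCN2 was at 48.4, 44.8 and 41.7 TPM with TE, against 15.8, 17.7 and 16.98 TPM with HTyr (log2 fold change 1.39, SE 0.10, adjusted p = 1.26e-05). CPA4, a carboxypeptidase, and ALDH1A3 were lower with TE (log2 fold changes -1.30 and -1.24), as were DKK1 (-0.94) and KRT7 (-0.81). KLRK1 and KLRC4-KLRK1, overlapping annotations of 1 natural killer receptor locus whose reads cannot be assigned apart, were higher by 1.15 and 0.99.

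**Figure D5:**
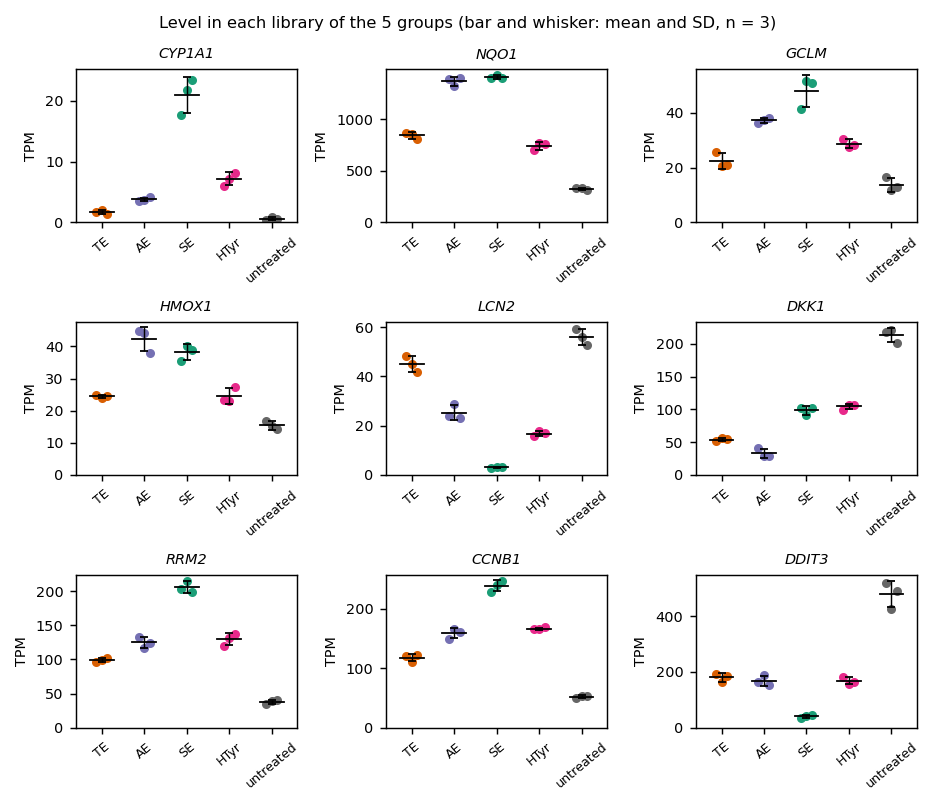
Level of 9 genes in each library (TPM, each axis starting at 0) of cells given TE, AE, SE or HTyr and of untreated cells, with mean and SD (n = 3). CYP1A1 is lowest with TE among the treatments, LCN2 is highest with TE among the treatments but below the untreated libraries, and DDIT3 lies between 163 and 193 TPM with TE and under 50 TPM with SE.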

How the data were processed

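Poly(A) libraries (stranded TruSeq kit, paired reads) were trimmed, aligned to GRCh38 with STAR and quantified with RSEM on Ensembl 104 by the authors. The authors deposited 1 table of TPM for 60664 genes and 15 libraries. The sources used here name no versions of STAR and RSEM. Read counts, which the study's own DESeq2 test used, were not used here.

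TPM were transformed to log2(TPM + 0.5) after leaving out 45765 genes with fewer than 3 libraries at 1 TPM or more. Limma 3.58.1 (R 4.3.3) was fitted with a mean-variance trend to all 15 libraries and 5 group means, and adjusted p-values cover all 14899 genes. The fold change understates changes of genes at low levels. The scripts were tested on simulated data. Shares were compared by exact permutation tests.

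Members and gene lists were chosen with earlier results of these data known. Named genes are the 12 largest rises and falls without overlap and with at least 5 TPM, the 4 members of each list with the smallest adjusted p and up to 3 called against its direction, the 5 largest differences from each treatment, genes followed by the study, and genes with a fixed pathway role. Others are marked as named after their values were seen. Some genes that the rule takes are not reported here. Alternatives were other pseudocounts (0.1 and 1), filters, scalings, weights, thresholds, a replicate block and leaving out libraries. Of 1432 list members, 1157 had a RefSeq promoter window.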

Additional observations from a re-analysis of the deposited data

How the results depend on the processing

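The count of genes changed with TE against untreated cells (1896) stayed within 1.5 times under other pseudocounts, filters, scalings and weights, and was 443 at a fold threshold of 1 (log2) and 5063 with no fold threshold. For TE against AE (13 genes) it was 7 with no filter on low values, 24 with array weights, 1 with only the groups compared, 1 at a fold threshold of 1 and 35 with none, and 4 to 8 with 1 library left out. For TE against SE (1246) it was 260 and 3939 at the same fold thresholds, and for TE against HTyr (105) it was 63 with no filter, 27 with only the groups compared, 19 and 490 at those fold thresholds, and 54 to 107 with 1 library left out. Quantile normalization split these comparisons into 7 higher and 6 lower (AE), 626 and 515 (SE) and 34 and 57 (HTyr). The cause of these differences was not tested, apart from thresholds and filters, which act by construction.

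A replicate block gave 1868 genes for TE against untreated cells, 12 against AE, 1235 against SE and 85 against HTyr. The deviations of TE and untreated libraries of the same number correlated at -0.103, 0.228 and 0.024, so the numbers were not taken to pair the cultures. Of the named genes, 170 in number, 142 were called, and 23 of these lost their call under at least 1 alternative. MFN2, which was not called, ranged over both signs (-0.121 to 0.0117) with 1 library left out. TPM give no depth, so precision at low levels rests on 3 libraries a group.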

Other observations

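Lysosomal genes that were described in no comparison above moved in part. Of 38 genes of autophagy and the lysosome, 7 rose with TE (18.4%) and 2 fell (5.26%). Over all genes tested 7.46% rose and 5.26% fell, so the falls were at the general share. The membrane protein LAMP1 and the galactosidase GLA rose by 0.74 and 0.86. ATG12, a conjugation factor of the autophagosome, stood at 159.5, 124 and 169.9 TPM with TE, against 426, 314 and 346 TPM without (log2 fold change -1.26, SE 0.14, adjusted p = 2.33e-05), and the cholesterol exporter NPC1 fell by 0.73. Of 24 junction genes, 3 fell (12.5%, against 5.26% of all genes tested) and 2 rose (8.33%, against 7.46%), with a median of -0.17. Among the falls, the tight junction protein CGN fell by 1.12 and OCLN (occludin), named after its values were seen, by 0.68. The connexin GJB2 and the desmosomal DSC2 rose by 0.74 and 0.59. DSC2 lost its call under a pseudocount of 1, median-ratio scaling and quantile normalization and without TE replicate 1 or untreated replicate 1. Of 32 interferon and antigen presentation genes, 2 rose (6.25%) and 1 fell (3.12%), below the 7.46% and 5.26% of all genes tested. OAS3, an antiviral synthetase, rose by 1.08 and IFI6, named after its values were seen, by 0.61, and SOCS3, a cytokine signal inhibitor, fell by 0.67. IFI6 lost its call under a pseudocount of 1, median-ratio scaling and quantile normalization and without TE replicate 3 or untreated replicate 1. Of 19 chromatin genes, UHRF1, RBBP7 and CBX2 rose by 0.86, 0.62 and 0.68, RBBP7 losing its call under median-ratio scaling and quantile normalization.

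For 66 genes TE was called against untreated cells (34 higher, 32 lower) while AE, SE and HTyr each had an adjusted p of at least 0.05; these comparisons share the untreated libraries. The largest of them are small nucleolar RNAs and unnamed loci. SNORA70 was listed at 13.3, 9.73 and 14.97 TPM with TE, against 0.00, 0.00 and 0.00 TPM without, and SNORA7A at 16.9, 0.00 and 49.2 TPM with TE, against 0.00, 0.00 and 0.00 TPM without. SNORA22B went the other way, at 0.00, 0.00 and 0.00 TPM with TE and 26.8, 19.1 and 36.5 TPM without. These RNAs are short and mostly lack a poly(A) tail, and an entry listed at 0 can be a failed estimate, so no fold is given. The calls of SNORA70 and SNORA7A were lost without any 1 of several libraries, and with no filter on low values. KLRK1-AS1, a long noncoding RNA, stood at 13.9, 16.8 and 12.1 TPM with TE, against 2.82, 4.23 and 2.51 TPM without (log2 fold change 2.02, SE 0.15, adjusted p = 7.41e-07), and it overlaps the KLRK1 locus.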
